A study of Homo sapiens and Mus musculus with 29 samples.

Results

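The genes described here are 10 components of Toll-like receptor and interleukin-1 receptor signaling: the kinase family members *IRAK1*, *IRAK2*, *IRAK3* and *IRAK4*, the adaptor *MYD88*, the ubiquitin ligase *TRAF6*, and the receptors *TLR2*, *TLR3*, *TLR4* and *TLR5*. They were taken by symbol from 58719 genes measured by RNA-seq in tumors of HPAF-II, an established human pancreatic ductal adenocarcinoma line. *IRAK3* was picked because its level moved in opposite directions with FOXA1 overexpression in tumors with and without HNF4G-KO. Its levels in primary tumors are therefore given as a description, with no test.

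Toll-like receptors recognize microbial molecules. TLR2 binds bacterial lipopeptides, TLR3 double-stranded RNA, TLR4 lipopolysaccharide and TLR5 flagellin. All of these except TLR3, and also the receptors for interleukin-1, interleukin-18 and interleukin-33, recruit MYD88, on which IRAK4 assembles and activates IRAK1 and IRAK2. These pass the signal to TRAF6 and on to NF-kB and MAP kinases. IRAK3, also called IRAK-M, lacks efficient kinase activity and is best known as a brake on this pathway in monocytes and macrophages. In pancreatic cancer, IRAK4 and the receptors upstream of it have been studied as sources of NF-kB activity.

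The cells were injected into the pancreas of NSG mice, which lack lymphocytes and natural killer cells but keep myeloid cells, and which were about 8 weeks old when obtained. All groups had passed through CRISPR/Cas9. The control tumors carried Cas-9 and an empty vector (Cas-9-EV, 3 libraries from 3 mice), and the HNF4G-KO tumors a disrupted *HNF4G* and an empty vector (HNF4G KO-EV, 4 libraries from 4 mice). The FOXA1-OE tumors carried Cas-9 and added FOXA1 (Cas-9-FOXA1, 3 libraries from 3 mice). The HNF4G-KO + FOXA1-OE tumors had both changes (5 libraries from 4 mice, tumors 2 and 3 sharing a mouse). There were 2 HNF4G-KO metastases, both peritoneal, from 2 mice, and 4 HNF4G-KO + FOXA1-OE metastases from 3 mice. Of the latter, metastasis 1 (spleen) and metastasis 2 shared a mouse. Metastases 2 and 3 were labeled "peri mets in fat", and metastasis 4 lay in the peritoneum. The methods describe the HNF4G-KO cells as a pool of 3 knockout clones, so the groups with HNF4G-KO stand for few clones. The methods call this pool HNF4G-/-, and also describe the frameshift mutations of the 3 clones as heterozygous. No cloning of the control or FOXA1-OE cells is described there, so cloning and HNF4G-KO cannot be told apart here. The methods also describe a FOXA1-OE study with fewer injected cells. No control or FOXA1-OE metastases were analysed here, so FOXA1 in metastases can be read only in HNF4G-KO cells.

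The level unit is RPKM, reads scaled to the length of the gene and to the depth of the library. Depth recovered from the steps between low RPKM values was 33.1 to 69.6 M counts (M, mega) per library, with a median of 54.5 M. Epithelial markers were high in every library: the summed RPKM of 10 such genes ran from 3617 to 7099, led by *KRT19*, *KRT8* and *KRT18*. The targeted genes did not follow all labels. *FOXA1* RNA was 6.32, 8.18 and 0.763 RPKM in FOXA1-OE tumors 1 to 3, so the third stood among the control tumors (0.932, 0.679 and 0.519 RPKM). In the HNF4G-KO + FOXA1-OE tumors it ran from 4.65 to 23.1 RPKM, above the 1.26 to 1.87 RPKM of the HNF4G-KO tumors. In the metastases labeled HNF4G-KO + FOXA1-OE, metastasis 2 had 17.9 RPKM, but metastases 1, 3 and 4 had 0.535, 1.30 and 1.55 RPKM, beside 0.362 and 0.602 RPKM in the HNF4G-KO metastases. Metastases 3 and 4 were thus above the HNF4G-KO metastases, but all 3 were below every HNF4G-KO + FOXA1-OE tumor. *HNF4G* RNA was higher in the tumors labeled HNF4G-KO (5.72 to 8.42 RPKM) than in the control tumors (2.48 to 3.47 RPKM), and a frameshift need not remove the RNA, so this level does not check the label. FOXA1-OE tumor 3 was also low in *HNF4G* (0.495 RPKM).

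*IRAK3* lies on chromosome 12, positions 66189195 to 66254622 of GRCh38, on the forward strand in 13 exon blocks. The stretch just before it is shown because the groups differ in 2 DNA-binding factors, FOXA1 and HNF4G. It covers chr12:66188964-66189194, forward strand, from the RefSeq promoter set of build GRCh38.p14, and ends before the outermost annotated start. Capitals mark CAAAG, a short core shared by HNF4 elements.

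IRAK3: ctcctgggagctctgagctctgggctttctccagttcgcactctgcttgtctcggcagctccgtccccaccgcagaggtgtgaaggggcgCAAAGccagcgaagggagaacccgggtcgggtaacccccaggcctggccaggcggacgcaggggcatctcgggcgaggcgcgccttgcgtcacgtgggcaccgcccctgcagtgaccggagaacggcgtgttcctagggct

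This stretch was 68.4% G and C. On either strand of the 250 bases before the RefSeq starts, CAAAG was found for 4 of the 10 genes (*IRAK3*, *IRAK4*, *TLR3* and *TLR4*) and in 42.1% of 35116 promoters, so its presence is common. TGTTT, the short core of forkhead elements, was found for *IRAK4*, *TLR3* and *TLR4*, and in 40.4% of all promoters. A full forkhead element, TGTTTAC, was in 2.98% of all promoters and in none of the 10. Its variant TGTTTGC was in 3.23% of all and in none of the 10. A longer HNF4 element, CAAAGTCCA, was in 0.325% of all and in none of the 10. These longer forms contain the short ones. No match here says only that these letters are not in this window.

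*IRAK3*, the inhibitory member, was expressed at a low level, and its order across tumor groups ran HNF4G-KO, FOXA1-OE, control, HNF4G-KO + FOXA1-OE. The control tumors had 1.04, 0.671 and 1.28 RPKM. The FOXA1-OE tumors had 1.75, 2.02 and 1.86 RPKM. All 3 were above the control tumors, and tumor 3 lay with the others although its *FOXA1* RNA was low. The HNF4G-KO tumors had 2.6, 3.67, 2.85 and 2.25 RPKM, above both of those groups. The HNF4G-KO + FOXA1-OE tumors had 0.389, 1.05, 0.631, 1.25 and 0.645 RPKM, all below the HNF4G-KO and FOXA1-OE tumors and overlapping the control tumors. These were the values the gene was chosen on.

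As means over mice, where libraries of 1 mouse were averaged on the log2(RPKM + 1) scale, *IRAK3* was 0.999 ± 0.309 RPKM in control tumors (SD, n = 3), 1.87 ± 0.136 RPKM in FOXA1-OE tumors (SD, n = 3), 2.84 ± 0.603 RPKM in HNF4G-KO tumors (SD, n = 4) and 0.779 ± 0.364 RPKM in HNF4G-KO + FOXA1-OE tumors (SD, n = 4). HNF4G-KO tumors were thus 2.85-fold above control and 3.65-fold above HNF4G-KO + FOXA1-OE tumors, and FOXA1-OE tumors 1.88-fold above control. On the log2(RPKM + 1) scale, the FOXA1-OE difference was 0.53 without HNF4G-KO and -1.12 with it, a difference between the differences of -1.65. Without FOXA1-OE tumor 3, the first of these was 0.54 and the last -1.66. That scale understates changes of genes this low: with a pseudocount of 0.1 in place of 1, the last value was -2.71. The *IRAK3* values rest on 199 to 2140 counts per library, so counting error is small beside the spread between tumors.

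**Figure D1:**
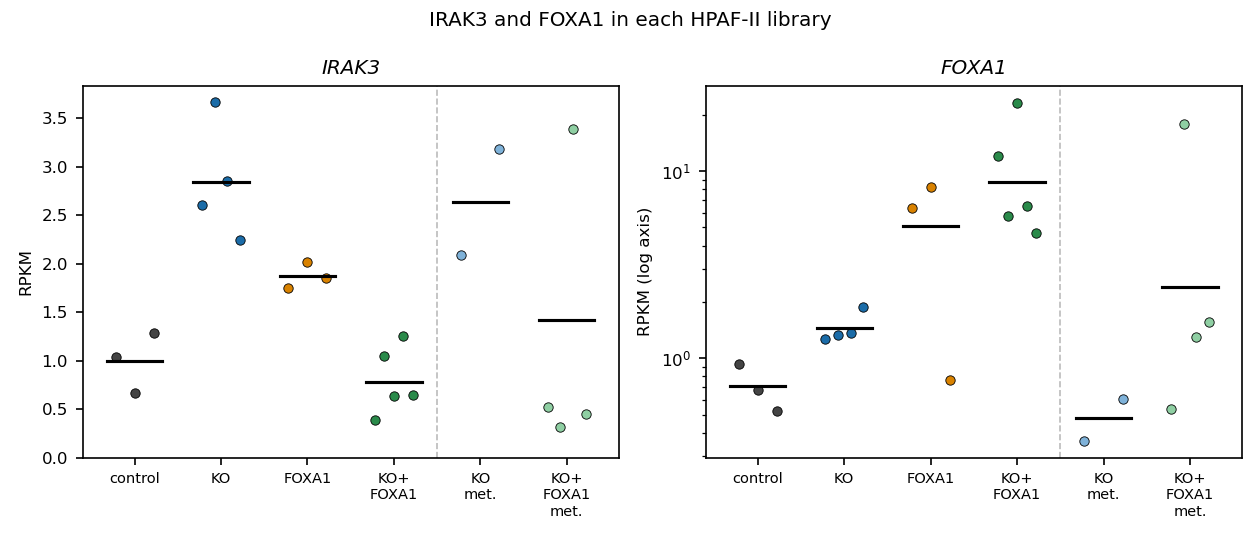
*IRAK3* (left, RPKM) and *FOXA1* (right, RPKM on a log axis) in each library, by group, with metastases right of the dashed line. Points are libraries and lines are means over mice, with libraries of 1 mouse first averaged on the log2(RPKM + 1) scale. Among tumors *IRAK3* was lowest in the HNF4G-KO + FOXA1-OE group (0.389 to 1.25 RPKM), and HNF4G-KO + FOXA1-OE metastasis 3, at 3.38 RPKM, stood apart from the other 3 of its group.

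The metastases were not used in choosing *IRAK3*, but 4 of their 5 mice also gave tumors that were. Its level was 2.09 and 3.19 RPKM in the 2 HNF4G-KO metastases, within or close to the range of the HNF4G-KO tumors. In HNF4G-KO + FOXA1-OE metastases 1 to 4 it was 0.523, 0.313, 3.38 and 0.451 RPKM. Metastases 1, 2 and 4 were below both HNF4G-KO metastases, and metastasis 3 was above them. The mean over mice was 2.64 ± 0.776 RPKM (SD, n = 2) in the HNF4G-KO metastases and 1.42 ± 1.70 RPKM (SD, n = 3) in the HNF4G-KO + FOXA1-OE metastases. The log2 difference was -0.79 ± 0.40 (SE) and was not past the threshold (limma adjusted p = 0.736). The spread in that fit came also from the HNF4G-KO and HNF4G-KO + FOXA1-OE tumors, whose values chose the gene. Its SE and p are thus not independent of the choice. The two-sided exact permutation test over mice used the metastases only and gave p = 0.6, and 3 mice against 2 cannot go below 0.2. Without the mouse of metastasis 3 the difference was -1.33 (limma adjusted p = 0.859), and with metastasis 2 alone, the only one with high *FOXA1* RNA, it was -1.45 (limma adjusted p = 0.914). Metastases differed from tumors of the same cells by a log2 value of -0.08 in HNF4G-KO and 0.25 in HNF4G-KO + FOXA1-OE, which is a description with no test because the tumor values chose the gene. The latter became -0.29 without the mouse of metastasis 3, and -0.42 with metastasis 2 alone. In the order of all 6 group means, HNF4G-KO tumors and metastases overlapped, and the HNF4G-KO + FOXA1-OE metastases overlapped every other group.

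The genes whose log2(RPKM + 1) followed *IRAK3* most closely, over 19 tumors and metastases averaged by mouse and among 14229 genes, were *ADGRL3* (Pearson's r = 0.947), *BST1* (r = 0.900), *ZNF487* (r = 0.900), *BBS4* (r = 0.847) and *PIH1D2* (r = 0.836). ADGRL3 is an adhesion G protein-coupled receptor, BST1 an ectoenzyme of the CD38 family, and BBS4 a subunit of the ciliary BBSome. The points share groups and mice, so these are descriptions. *ADGRL3* was 1.01 ± 0.149 RPKM in control tumors (SD, n = 3), 1.75 ± 0.118 in FOXA1-OE (SD, n = 3), 3.43 ± 0.336 in HNF4G-KO (SD, n = 4) and 1.06 ± 0.418 in HNF4G-KO + FOXA1-OE tumors (SD, n = 4), the order of *IRAK3* but for the last 2 groups. In HNF4G-KO + FOXA1-OE metastases 1 to 4 it was 0.495, 0.737, 3.85 and 0.655 RPKM, highest in metastasis 3. Metastasis 3 was the highest of its group for *BST1* (2.68 RPKM), *ZNF487* (2.44 RPKM), *BBS4* (4.35 RPKM) and *PIH1D2* (4.07 RPKM). All of these genes were picked for following *IRAK3* over samples that include metastasis 3. Their high values in that library follow in part from the choice and are no separate check on its *IRAK3* level. The other 9 genes did not follow *IRAK3* as closely: r ran from -0.241 for *MYD88* to 0.470 for *TLR5*.

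Of the remaining 9 genes, 5 passed the filter of a mean of at least 1 RPKM in primary tumors and were tested with limma among 14269 genes. These were *IRAK1*, *IRAK2*, *IRAK4*, *MYD88* and *TRAF6*. In HNF4G-KO against control tumors, 1 of the 5 was called at an adjusted p under 0.05, where 12.2% of all genes tested were called (6.18% higher and 5.99% lower). This was *IRAK4*, the kinase at the head of the cascade, which was higher in HNF4G-KO. The groups did not overlap for any of the 5, with *IRAK2*, *IRAK4*, *MYD88* and *TRAF6* higher and *IRAK1* lower in HNF4G-KO. Over all genes tested, 25.1% were higher and 21.3% lower without overlap.

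*IRAK4* was 2.86, 2.82 and 2.77 RPKM in the control tumors and 5.63, 4.93, 4.76 and 5.35 RPKM in the HNF4G-KO tumors. The control tumors lay within 0.1 RPKM of each other, and the mean of the HNF4G-KO tumors was 1.83-fold higher. The log2 difference was 0.69 ± 0.16 (SE, limma adjusted p = 0.0160). It kept its sign in all 20 alternatives, with values from 0.64 to 0.85, but was no longer called without control tumor 2 (limma adjusted p = 0.0734), without control tumor 3 (limma adjusted p = 0.0593) or with the host myeloid level as a covariate (limma adjusted p = 0.266). The summed host myeloid markers did not overlap between these groups, so that covariate cannot be separated from HNF4G-KO. *IRAK4* (chromosome 12, 43758944 to 43798307, forward strand) overlaps the 3′ part of *TWF1* on the opposite strand. The kit was stranded, but the strand setting of the counting is not given in the sources used here. *TWF1*, which codes for the actin-binding protein twinfilin, was 23.7 ± 3.37 RPKM in control (SD, n = 3) and 58.8 ± 16.2 RPKM in HNF4G-KO tumors (SD, n = 4), and *IRAK4* and *TWF1* correlated with r = 0.866 over the 19 averaged samples and r = 0.803 after group means were taken off. The part of *TWF1* reads in the *IRAK4* values was not tested.

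*IRAK1*, the most abundant of the kinases, was 78.3, 73.2 and 81.9 RPKM in control tumors and 66.0, 57.8, 55.1 and 68.3 RPKM in HNF4G-KO tumors. It was lower in all 4, by a log2 difference of -0.33 ± 0.17 (SE), which was not called (limma adjusted p = 0.203). *IRAK2*, which can stand in for IRAK1 at later times, was 10.1, 9.53 and 8.59 RPKM in control tumors and 12.4, 13.0, 11.6 and 13.9 RPKM in HNF4G-KO tumors. Its difference was 0.40 ± 0.31 (SE, limma adjusted p = 0.400). Both genes lay apart between these groups, but the shared estimate of the spread includes the FOXA1-OE groups, where *IRAK2* ran from 5.07 to 19.4 RPKM. *MYD88* was 31.2, 28.7 and 30.2 RPKM in control and 36.6, 39.2, 38.1 and 34.1 RPKM in HNF4G-KO tumors, a difference of 0.29 ± 0.31 (SE, limma adjusted p = 0.546). *TRAF6* was 1.49, 1.28 and 1.12 RPKM in control and 1.60, 1.61, 2.19 and 2.03 RPKM in HNF4G-KO tumors, a difference of 0.31 ± 0.19 (SE, limma adjusted p = 0.284). The adaptor and the ligase thus had 95% intervals that include no change, from -0.39 to 0.98 and from -0.11 to 0.73.

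**Figure D2:**
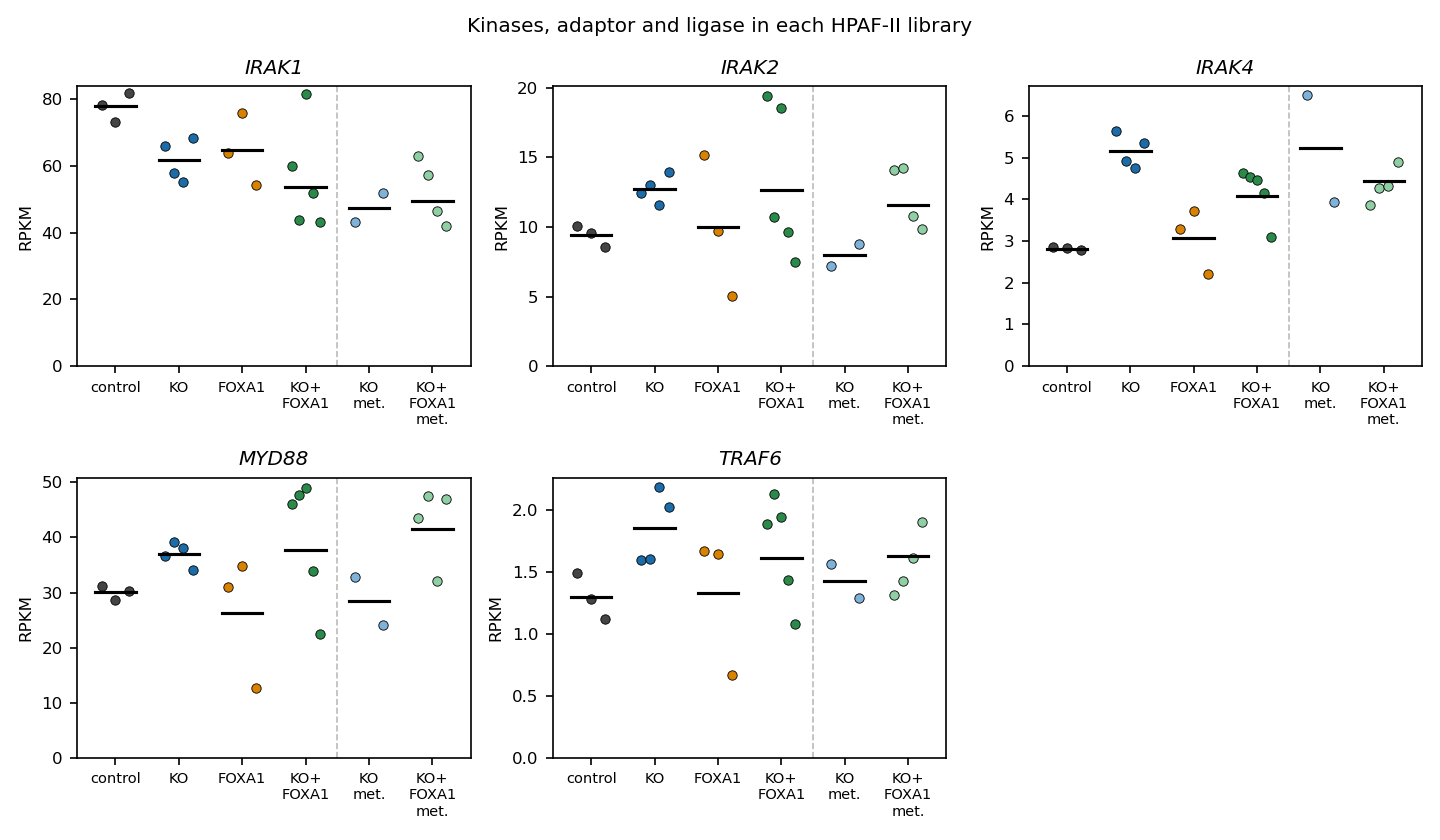
RPKM of *IRAK1*, *IRAK2*, *IRAK4*, *MYD88* and *TRAF6* in each library, by group, with metastases right of the dashed line. Points are libraries and lines are means over mice (libraries of 1 mouse averaged first on the log2 scale); FOXA1-OE tumor 3 is the lowest point of its group in all 5 panels, and the 3 control tumors lie close together for *IRAK4* (2.77 to 2.86 RPKM).

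In FOXA1-OE against control tumors none of the 5 tested genes was called (limma adjusted p from 0.840 to 0.992, none at an unadjusted p under 0.05). None of the 14269 genes was called either (0%), and 652 had an unadjusted p under 0.05. The groups overlapped for each of the 5. FOXA1-OE tumor 3 was the lowest of its group throughout: *MYD88* was 31.1, 34.8 and 12.7 RPKM in tumors 1 to 3, *IRAK2* 15.2, 9.73 and 5.07 RPKM, and *TRAF6* 1.67, 1.65 and 0.665 RPKM. Without it, the log2 difference of *MYD88* went from -0.31 to 0.13, of *IRAK2* from -0.03 to 0.34 and of *TRAF6* from -0.01 to 0.21, and none of the 5 was called. The direction of *MYD88* with FOXA1 alone therefore rested on 1 library, and that of *IRAK2* and *TRAF6* turned also without control tumor 1, with the libraries shifted to the same median and with the host myeloid covariate.

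FOXA1 on top of HNF4G-KO gave no call among the 5 genes either (limma adjusted p from 0.267 to 0.952, none at an unadjusted p under 0.05). Only 8 genes in all (0.0561%) were called in HNF4G-KO + FOXA1-OE against HNF4G-KO tumors, all lower, and 2894 had an unadjusted p under 0.05. *IRAK4* was 4.62, 4.53, 4.46, 4.14 and 3.10 RPKM in the HNF4G-KO + FOXA1-OE tumors, below all 4 HNF4G-KO tumors, with a log2 difference of -0.29 ± 0.14 (SE, limma adjusted p = 0.267). It was the only one of the 5 whose groups did not overlap, where 12.2% of all genes were lower without overlap. *TWF1* was 33.7 ± 16.7 RPKM in these tumors (SD, n = 4).

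Against control tumors, which HNF4G-KO and HNF4G-KO + FOXA1-OE share as a reference, the HNF4G-KO + FOXA1-OE tumors had no called gene among the 5 by limma (4.7% of all genes were called), with *IRAK1* and *IRAK4* at an unadjusted p under 0.05, as were 19.2% of all genes. *IRAK1* was 60.1, 43.6, 81.5, 52.0 and 43.1 RPKM in libraries 1 to 5. Tumors 2 and 3, at 43.6 and 81.5 RPKM, came from the same mouse, and only tumor 3 reached the control range. The difference was -0.54 ± 0.17 (SE, limma adjusted p = 0.0911), beside -0.33 in HNF4G-KO alone. For *IRAK4* the difference was 0.40 ± 0.16 (SE, limma adjusted p = 0.170), beside 0.69. The groups did not overlap for either gene once the shared mouse was averaged, where 12.1% of genes were lower and 6.78% higher without overlap. *IRAK2*, *MYD88* and *TRAF6* differed by 0.32, 0.26 and 0.17, with limma adjusted p from 0.631 to 0.706. The FOXA1-OE effect did not differ detectably between cells with and without HNF4G-KO for any of the 5 (limma adjusted p from 0.707 to 0.989, with 5 genes or 0.035% called in all and 1209 at an unadjusted p under 0.05). For *IRAK1* the 95% interval of that difference ran from -0.46 to 0.60.

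In the metastases none of the same 5 genes was called in any of the 3 comparisons by limma, among 14099 genes tested, and only *IRAK2* in the HNF4G-KO comparison had an unadjusted p under 0.05. HNF4G-KO metastases had 6 called genes (0.0426%) against HNF4G-KO tumors, and 1896 at an unadjusted p under 0.05. *IRAK2* was 7.21 and 8.74 RPKM there, below all 4 HNF4G-KO tumors (11.6 to 13.9 RPKM), with a log2 difference of -0.62 ± 0.28 (SE, limma adjusted p = 0.368). *IRAK1* (43.0 and 51.9 RPKM), *MYD88* (32.8 and 24.1 RPKM) and *TRAF6* (1.57 and 1.29 RPKM) also lay below every HNF4G-KO tumor, where 21% of all genes were lower without overlap. Host stroma markers were higher in sum: the summed RPKM of 14 such genes, led by *COL1A1*, was 83.2 and 440 in these metastases and 57.9 to 80.6 in the tumors. Of the 9 that passed the filter none was called by limma. At an unadjusted p under 0.05 there were 7 of the 9, or 77.8% beside 13.4% of all genes tested. The median log2 difference of the 9 was 1.28. The part of stroma in the lower values was not tested. *IRAK4* was 6.50 and 3.94 RPKM, on either side of the tumors. In HNF4G-KO + FOXA1-OE, metastases and tumors overlapped for each of these genes, with 1 gene (0.00709%) called in all, 1356 at an unadjusted p under 0.05 and limma adjusted p of the 5 from 0.781 to 0.967. Between the 2 kinds of metastasis, where no gene was called (0%) and 963 had an unadjusted p under 0.05, *IRAK2* was higher with FOXA1-OE at 14.1, 14.2, 10.8 and 9.85 RPKM without overlap (log2 difference 0.48 ± 0.30 SE, limma adjusted p = 0.771), where 10.3% of all genes were higher without overlap.

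**Figure D3:**
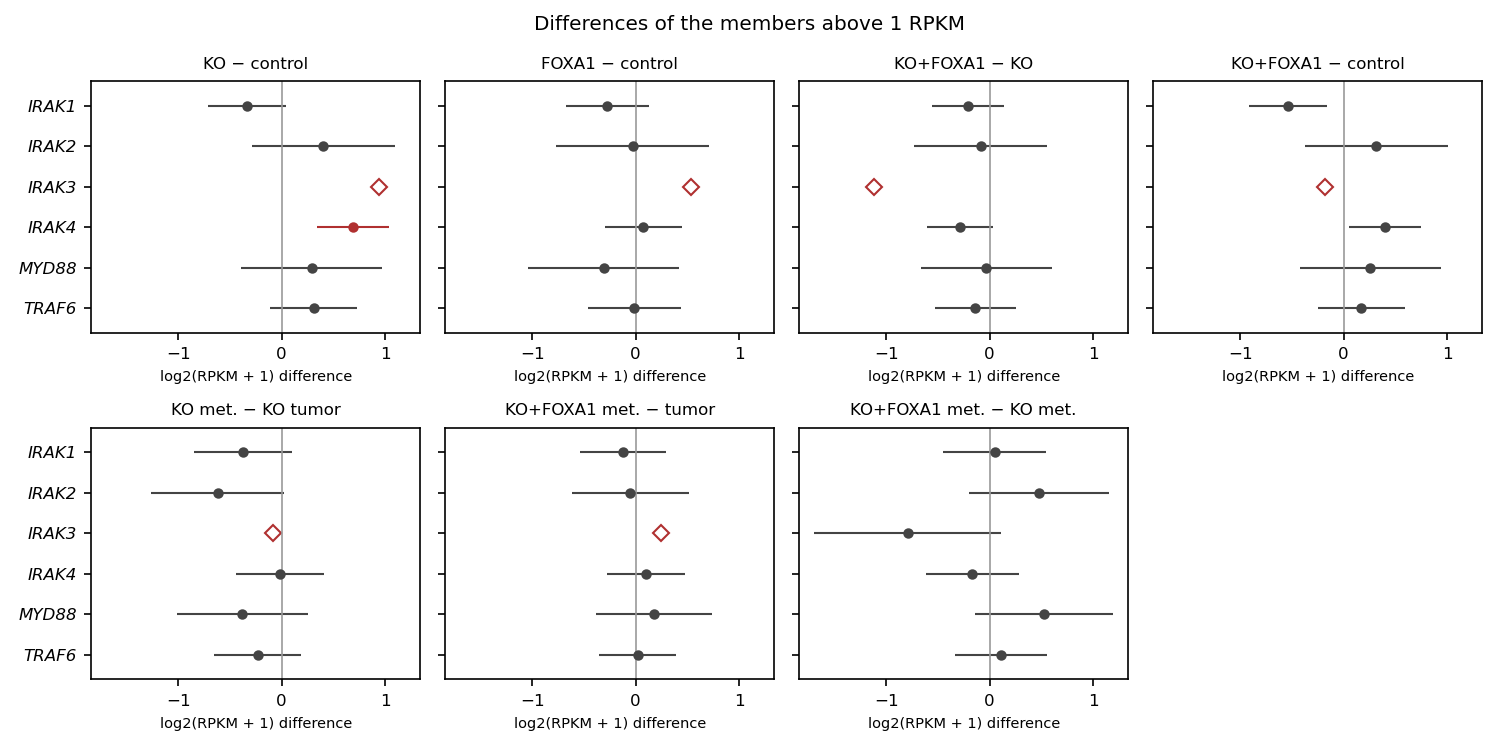
Differences on the log2(RPKM + 1) scale for the 6 genes above the filter, 1 panel per comparison, as points with 95% intervals built from limma standard errors. The red point is *IRAK4* in HNF4G-KO minus control (0.69, the only call). Open diamonds are *IRAK3* in comparisons with a primary tumor group, whose values chose the gene, and carry no interval. The *IRAK3* interval between the kinds of metastasis takes its spread in part from those tumors.

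The 4 Toll-like receptors were below 1 RPKM in every library and did not pass the filter, so they were compared by two-sided exact permutation tests over mice, 28 in all. The smallest adjusted p was 0.4. With so few mice no values could have brought an adjusted p under 0.05, so these tests cannot tell whether a receptor differed. The smallest p that 4 mice against 4 can give is 0.0286, and that of 4 mice against 3 is 0.0571. *TLR3* reached it in HNF4G-KO against control: it was 0.345, 0.208 and 0.187 RPKM in control and 0.771, 0.787, 0.665 and 0.397 RPKM in HNF4G-KO tumors, with no overlap and a mean 2.66-fold higher (exact p = 0.0571, adjusted p = 0.4). Its counts were 49 to 132 in control and 171 to 311 in HNF4G-KO libraries. HNF4G-KO + FOXA1-OE tumors, at 0.626, 0.557, 0.260, 0.375 and 0.262 RPKM, overlapped both groups, and only their mean over mice (0.416 RPKM) lay between. In the HNF4G-KO metastases *TLR3* was 0.473 and 0.189 RPKM, the lower of them within the control range.

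*TLR2* went the other way in HNF4G-KO tumors. It was 0.0944, 0.0982 and 0.124 RPKM in control and 0.00725, 0.0456, 0.0501 and 0.0478 RPKM in HNF4G-KO tumors (exact p = 0.0571, adjusted p = 0.4). These are 18 to 32 counts against 2 to 16, in steps of 2, so the values are close to the limit of detection. The lowest, HNF4G-KO tumor 1, held 2 counts. The summed RPKM of 15 host myeloid markers moved the same way, from 5.38 to 10.2 in control and from 2.55 to 3.79 in HNF4G-KO tumors. *CSF1R*, *C1QB* and *AIF1* led that list, 10 of its 15 genes were under 1 RPKM in every library, and *S100A8* was at 0 in all. The list did not move as a whole: 4 of the 15 were lower without overlap (*C1QB*, *C1QC*, *AIF1* and *LAPTM5*), 10 overlapped or were at 0, *CSF1R* and *ITGAM* among them, and *CD68* was higher without overlap, at 0.111 to 0.156 RPKM in control and 0.285 to 0.417 RPKM in HNF4G-KO tumors. Over all genes tested, 21.3% were lower and 25.1% higher without overlap in this comparison. The part of host cells in *TLR2* was not tested.

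*TLR4* was 0.598, 0.614 and 0.266 RPKM in control and 0.373 to 0.565 RPKM in HNF4G-KO tumors, which overlapped. It overlaps another annotated gene on the same strand. In HNF4G-KO + FOXA1-OE tumors it was 0.170 to 0.495 RPKM (exact p = 0.0571 against HNF4G-KO, adjusted p = 0.4). *TLR5* was 0.235, 0.302 and 0.222 RPKM in FOXA1-OE tumors, above the control tumors (0.186, 0.0880 and 0.0992 RPKM), in the same direction as *IRAK3*. The exact p of 0.1 is the smallest that 3 mice against 3 can give (adjusted p = 0.435). With HNF4G-KO, *TLR5* was 0.0189 to 0.109 RPKM with FOXA1-OE and 0.0562 to 0.158 RPKM without, which overlapped. Per length, the mean over the 15 tumors was 63.7 RPKM for *IRAK1*, 34.4 RPKM for *MYD88*, 11.7 RPKM for *IRAK2*, 3.95 RPKM for *IRAK4*, 1.60 RPKM for *IRAK3* and 1.59 RPKM for *TRAF6*, and 0.429 RPKM for *TLR4*, 0.399 RPKM for *TLR3*, 0.117 RPKM for *TLR5* and 0.0660 RPKM for *TLR2*. Every library had more *IRAK1*, *IRAK2*, *IRAK4* and *MYD88* than of any of the 4 receptors, whereas the lowest *IRAK3* (0.313 RPKM) and *TRAF6* (0.665 RPKM) values lay below the highest *TLR3* value (0.787 RPKM).

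**Figure D4:**
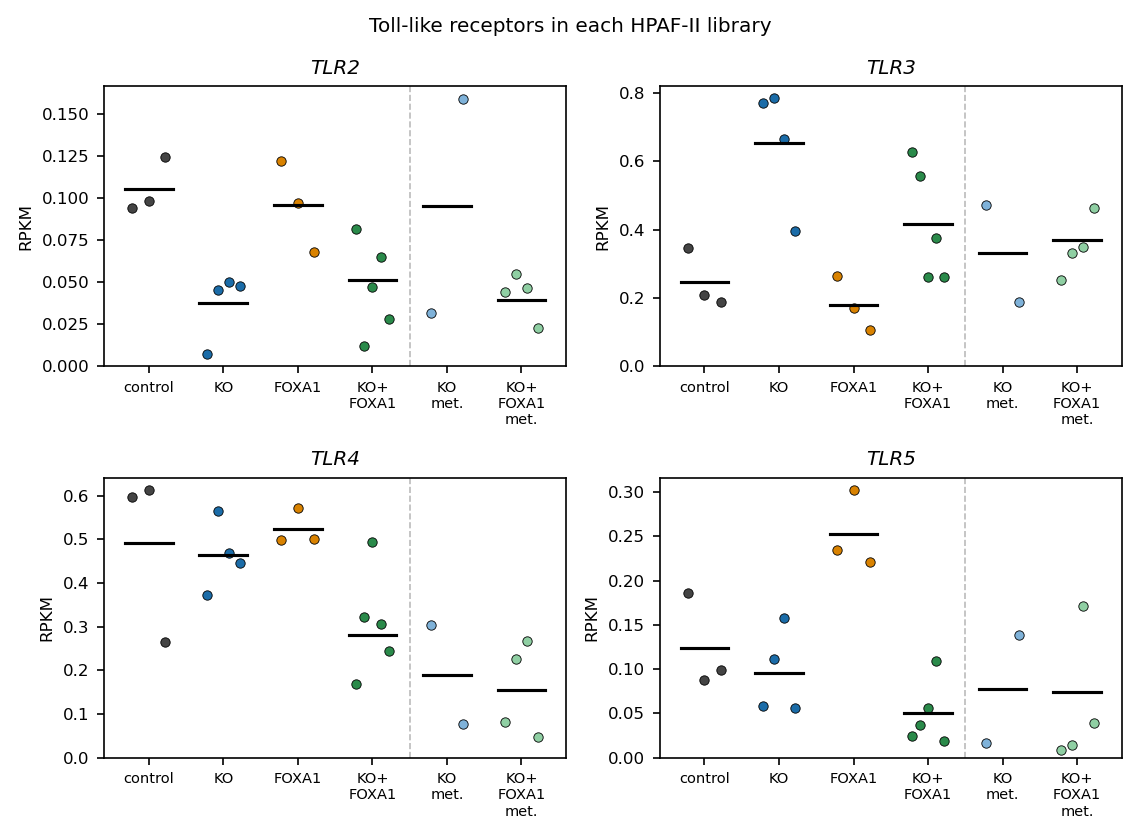
RPKM of *TLR2*, *TLR3*, *TLR4* and *TLR5* in each library, by group, with metastases right of the dashed line. Points are libraries and lines are means over mice (libraries of 1 mouse averaged first on the log2 scale); all points are below 1 RPKM, and the HNF4G-KO tumors lie above the control tumors for *TLR3* and below them for *TLR2*.

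Around these genes, 86 further pathway genes were in the table, of which 61 passed the filter in primary tumors. In HNF4G-KO against control tumors 2 were higher and 3 lower, or 8.2% called beside 12.2% of all genes. At an unadjusted p under 0.05 there were 13, or 21.3% beside 30.6% of all genes, so both shares were below those of all genes. The 6 tested receptors and co-receptors had 2 lower (*CD14* and *IL1RL1*), the 2 tested ligands of the interleukin-1 family had *IL1RN* higher and *IL18* lower, and the 23 tested adaptors, ligases and kinases had *CHUK* higher. Of these, *IL1RN* and *IL1RL1* passed the filter only through tumors with HNF4G-KO, as given below. None of 13 inhibitors, 8 transcription factors and 9 NF-kB target genes was called, with 1 of each at an unadjusted p under 0.05. Their median log2 differences were 0.10, -0.13 and -0.20, beside 0.01 over all genes tested.

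*CD14*, the co-receptor that hands lipopolysaccharide to TLR4, was 11.2, 13.2 and 17.3 RPKM in control and 5.21, 4.64, 4.15 and 4.17 RPKM in HNF4G-KO tumors. It fell by 1.41 ± 0.24 (SE) on the log2 scale (limma adjusted p = 0.00470), and also in HNF4G-KO + FOXA1-OE tumors, which had 2.68 to 6.95 RPKM (log2 difference -1.30 ± 0.24 SE, limma adjusted p = 0.00937). The summed host myeloid markers were lower in HNF4G-KO tumors, with *CD68* the other way, as given above. With the mean level of that list as a covariate *CD14* was no longer called in HNF4G-KO against control (limma adjusted p = 0.144). Its difference there ran from -1.62 to -1.25 over all 20 alternatives. The summed markers did not overlap between those groups, so the covariate cannot be separated from HNF4G-KO. Without control tumor 3, *CD14* was no longer called in HNF4G-KO + FOXA1-OE against control (limma adjusted p = 0.0648). In bulk tissue, fewer cells of a type and less RNA per cell cannot be told apart. FOXA1-OE tumor 3 had the highest *CD14* of all libraries, 18.1 RPKM, and among the leading myeloid markers the lowest *CSF1R* (0.162 RPKM), *C1QB* at 0.696 RPKM and the highest *AIF1* (1.90 RPKM). The part of host cells in *CD14* was not tested.

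*IL1RN*, the interleukin-1 receptor antagonist, was 0.815, 0.595 and 0.386 RPKM in control and 3.18, 2.44, 2.24 and 1.89 RPKM in HNF4G-KO tumors, a log2 difference of 1.10 ± 0.20 (SE, limma adjusted p = 0.00720). It was higher in HNF4G-KO + FOXA1-OE tumors too, at 0.823 to 3.57 RPKM (log2 difference 0.96 ± 0.20 SE, limma adjusted p = 0.0182). *IL1RN* was under 1 RPKM in every control and FOXA1-OE tumor. It thus passed the filter only through the groups with HNF4G-KO, where it was high, so the filter and these calls are not independent. The first call was lost with the host myeloid covariate (limma adjusted p = 0.188), and the second with that covariate (limma adjusted p = 0.0763), without control tumor 2 (limma adjusted p = 0.0707) and without control tumor 3 (limma adjusted p = 0.0976). Over all 20 alternatives the first difference ran from 1.00 to 1.88 and the second from 0.77 to 1.66. *CHUK*, the kinase IKK-alpha, was 4.70, 3.93 and 3.20 RPKM in control and 7.34, 9.35, 7.56 and 6.73 RPKM in HNF4G-KO tumors (log2 difference 0.83 ± 0.24 SE, limma adjusted p = 0.0429). *IL18*, an interleukin-1 family cytokine made by epithelial cells, fell by 0.82 ± 0.23 (SE) on the log2 scale (limma adjusted p = 0.0366), from 28.9 to 48.8 RPKM in control to 15.8 to 28.6 RPKM. *IL1RL1*, the interleukin-33 receptor, fell by 0.72 ± 0.20 (SE, limma adjusted p = 0.0327), from 0.808 to 1.26 RPKM to 0.163 to 0.342 RPKM. It passed the filter only through HNF4G-KO + FOXA1-OE tumor 3, at 6.16 RPKM beside 0.375 to 1.52 RPKM in the other 4 of that group, and was below the filter when the mouse of that tumor was left out. The calls of *CHUK*, *IL18* and *IL1RL1* were lost in 12 of 20, 8 of 20 and 11 of 19 alternatives, with the same sign in each. None of these genes was called in HNF4G-KO + FOXA1-OE against control tumors, where 3.28% of the 61 pathway genes were called beside 4.7% of all genes. In those tumors *CHUK* was 3.28 to 7.29 RPKM and *IL18* 27.6 to 35.0 RPKM, both overlapping control. *IL1RL1* overlapped control too, with a mean of 1.37 RPKM beside 1.10 RPKM in control.

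No further pathway gene was called in FOXA1-OE against control, in HNF4G-KO + FOXA1-OE against HNF4G-KO, or for the difference of the FOXA1-OE effects. At an unadjusted p under 0.05 there were 4, 11 and 6 of 61. These were 6.56%, 18% and 9.84%, beside 4.57%, 20.3% and 8.47% of all genes tested, so each share was near that of all genes. In the metastases, *CXCL5*, a neutrophil chemokine and NF-kB target, was 0.0914 and 0.0963 RPKM in HNF4G-KO metastases against 5.31 to 8.72 RPKM in HNF4G-KO tumors, a log2 difference of -2.81 ± 0.41 (SE, limma adjusted p = 0.0393). Both metastases were far below every tumor, but the call was lost in 10 of 17 alternatives with the same sign in each. No other pathway gene was called there. At an unadjusted p under 0.05 there were 8 of 63, *CXCL5* among them, or 12.7% beside 13.4% of all genes tested. None was called by limma in the other 2 comparisons of metastases. These had 5 and 2 of 63 at an unadjusted p under 0.05, or 7.94% and 3.17% beside 9.62% and 6.83% of all genes.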

How the data were processed

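The authors aligned stranded mRNA reads with STAR 2.6.1a and counted them with featureCounts 2.0.4, per the submitters' processing notes, which name GRCh38, whereas the methods name an older human build. They deposited RPKM values for 21 HPAF-II libraries from 15 mice. The gene IDs were paired with symbols by GENCODE release 44, which matched 58250 of 58719. A table of mouse KPC cell lines was not used. Removal of host reads is not stated in the sources used here. Whole counts were recovered from the RPKM steps, with at least 99.7% of low values whole within 0.02 counts, and served to give the depth and the counts behind single values, not for tests.

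Values were set to log2(RPKM + 1) and libraries of the same kind from 1 mouse were averaged. Genes whose mean RPKM reached 1 were fitted with limma 3.58.1 in R 4.3.3 (trended empirical Bayes, Benjamini-Hochberg over all genes tested, threshold 0.05). The fit of 4 primary tumor groups and that of tumors and metastases with HNF4G-KO, with or without FOXA1-OE, each shared 1 estimate of the spread, and mice with both kinds of sample were not blocked. Genes below the filter had exact permutation tests over mice. The procedure was tested on simulated data, where it recovered the sizes of the changes made but unchanged genes took a larger share of the calls than the threshold allows, so a call close to the threshold is less firm than its adjusted p. Alternatives were another pseudocount, no filter, a median shift, separate libraries, a replicate block, a host myeloid covariate and leaving out each mouse.

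The named genes are the 10 members, the other listed pathway genes with an adjusted p under 0.05 (at most 6 per direction), the 5 genes most correlated with *IRAK3*, and *FOXA1* and *HNF4G*. *TWF1* was added for its overlap with *IRAK4*. Host marker genes are named as the highest of their list. The members and lists were chosen with earlier results of these data known. Same-mouse tumors and metastases deviated together with r from -0.0264 to 0.303 in 4 pairs. Positions are from GENCODE release 44 and promoters from RefSeq.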

Additional observations from a re-analysis of the deposited data

Results flagged for a closer look

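*IRAK3* in HNF4G-KO + FOXA1-OE metastasis 3 was 3.38 RPKM, far from the other 3 metastases of its group (0.313 to 0.523 RPKM). *FOXA1* RNA was 1.30 RPKM in this library, and 0.535 and 1.55 RPKM in metastases 1 and 4, where *IRAK3* was low. The part of *FOXA1* in these values was not tested. *TLR2* in HNF4G-KO tumor 1 was 0.00725 RPKM, or 2 counts, below the other 3 tumors of its group (0.0456 to 0.0501 RPKM). These were 2 of 30 combinations of a gene and a group of 4 or 5 libraries, and chance marks about 1 in 20.

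*IRAK3* moved in opposite directions under the same change in cells of different background, with no overlap in either, which is what chose the gene, and the difference was not tested. FOXA1-OE tumors were 0.53 above control tumors on the log2 scale, and HNF4G-KO + FOXA1-OE tumors were -1.12 from HNF4G-KO tumors. Read the other way, HNF4G-KO tumors were 0.94 above control tumors, and HNF4G-KO + FOXA1-OE tumors -0.71 from FOXA1-OE tumors.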

How the results depend on the processing

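The number of tested genes called in HNF4G-KO against control was 1 (*IRAK4*) and went to 0 with the host myeloid covariate and ran from 0 to 1 when single mice were left out, being 0 without control tumor 2 or 3. The summed markers behind that covariate lay apart between the HNF4G-KO and control tumors, so it cannot be separated from HNF4G-KO there. In all other comparisons no member was called under any alternative run. The *IRAK3* difference of FOXA1-OE effects, -1.65, was -2.71 with a pseudocount of 0.1 and -1.33 with the covariate, and ran from -1.78 to -1.53 when mice were left out. The directions that turned belonged to differences not called. In FOXA1-OE against control, *IRAK2* was 0.0037 after the median shift and 0.17 with the covariate, and *TRAF6* 0.021 and 0.076. In HNF4G-KO metastases against tumors, the covariate gave 0.40 for *IRAK3* and 0.34 for *IRAK4*, and the median shift 0.054 for *IRAK4*. With HNF4G-KO + FOXA1-OE metastasis 2 alone, an alternative chosen after seeing the data, *IRAK1* differed from the tumors by 0.10 and *IRAK3* by -0.42. The cause of these changes was not tested.

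Where leaving out a mouse left 1 sample in a group, that sample was assumed to vary like the other groups. Leaving out single mice moved FOXA1-OE minus control from -0.36 to 0.34 for *IRAK2*, -0.56 to 0.13 for *MYD88*, -0.13 to 0.21 for *TRAF6* and -0.041 to 0.24 for *IRAK4*, and the difference of effects from -0.050 to 0.19 for *IRAK1*. It moved HNF4G-KO metastases minus tumors from -0.38 to 0.23 for *IRAK3* and -0.34 to 0.30 for *IRAK4*, HNF4G-KO + FOXA1-OE metastases minus tumors from -0.29 to 0.63 for *IRAK3*, and the 2 kinds of metastasis from -0.094 to 0.18 for *IRAK1* and -0.47 to 0.13 for *IRAK4*.

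Same-numbered tumors of different groups did not pair (r from -0.526 to 0.497, median 0.0163, 19 pairs). With tumor number as a replicate block, *IRAK4* in HNF4G-KO against control was 0.70 (limma adjusted p = 0.0178) and the *IRAK3* difference of effects -1.62. With the mouse as a block in the fit with metastases (consensus correlation 0.408), the *IRAK3* difference between metastases was -0.87 (limma adjusted p = 0.659). No call of a member changed under a block. Receptors at a few counts per library and groups of 2 to 4 mice limit what could be detected.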
